A study of Homo sapiens with 6 samples.

Results

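STRAP, PICALM, GNAS, DEK, KMT2D, CEP164, ATR and FMR1 are 8 human genes whose splicing other studies have tied to S34F mutant U2AF1. They were chosen by symbol, by a rule that uses no measured value although earlier results of these data were known, and make up 8 of the 31142 genes listed in the deposited expression table. Each symbol had 1 gene identifier. RNA was sequenced from 6 libraries, 3 labelled S34F and 3 labelled WT. The sample titles give the cells as SKM-1, a leukemia cell line derived from a patient with myelodysplastic syndrome (MDS). Markers of that label were found only in part, as given below. S34F cells carried a lentiviral vector with FLAG-tagged U2AF1 bearing the S34F change, and WT cells are labelled as expressing wild-type U2AF1. The vector drives U2AF1 from a ubiquitin promoter and also encodes green fluorescent protein and puromycin resistance. Stably transduced cells were selected, and total RNA was taken at 96 h. The line keeps its own wild-type U2AF1 in both groups. The WT samples carry a prefix that the study also uses for negative controls, which its methods describe as untransfected cells. For RNA sequencing the methods speak of a vehicle control. Whether the WT cells carried a vector and were selected, and what that vector held, therefore rests on the sample titles. The study describes 3 pairs of independent RNA samples and cells treated in triplicate. It does not say whether the replicates came from separate transductions, so p-values measure only the spread between these libraries.

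U2AF1 is the small subunit of the U2AF dimer, which marks the end of an intron for the spliceosome. U2AF2 binds the pyrimidine tract, and U2AF1 reads the AG dinucleotide on which the intron ends. The S34F change lies in a zinc finger of U2AF1 and is known to alter how the protein reads the base just before that AG. Introns ending in TAG are used less well with the mutant, and many ending in CAG or AAG are used as well or better, so that whole exons are skipped or included. Such a change can leave the total RNA of a gene as it was, or can alter it where the new transcript is unstable. The values available here are 1 level per gene, as FPKM, a density of fragments along the transcript that is corrected for transcript length and for the total of each library. They add up all transcripts of a gene, and exon inclusion cannot be read from them.

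To show the sequence that U2AF1 reads in these genes, acceptor sites were taken from GENCODE 29 transcripts on build GRCh38. An acceptor could be read only where another annotated transcript runs through the intron end. Those that could be read and whose intron ended in AG are called readable here, 45 of the 238 annotated acceptors of the 8 genes. For each gene the readable acceptor used by most transcripts is printed, with exons that other transcripts splice past taken first. The choice used no report of altered splicing, so the printed acceptors need not be those that other studies tied to S34F. A second GNAS acceptor and the last 3 FMR1 acceptors were added after reading them, the first because its exon of 45 bases separates the long and short forms of the Gs alpha protein, the others because they are alternative starts of 1 exon. Each line gives 15 intron bases and 6 exon bases, 5′ to 3′ on the strand of the gene, and capitals mark the base before the AG together with the AG.
STRAP chr12:15900932-15900952, plus strand: cttttctttttaCAGaagaag
PICALM chr11:85976677-85976697, minus strand: ctttcactatgtTAGgcaccc
GNAS chr20:58895597-58895617, plus strand: actttcattttcTAGgtgctg
GNAS chr20:58898926-58898946, plus strand: atctctctttaaAAGgggcgg
DEK chr6:18263991-18264011, minus strand: tcttcccgcatgCAGgttcac
KMT2D chr12:49030434-49030454, minus strand: ccccccacccctCAGaataac
CEP164 chr11:117382781-117382801, plus strand: cttactgctatcAAGggagca
ATR chr3:142450597-142450617, minus strand: ccaccttttcctAAGatggca
FMR1 chrX:147928307-147928327, plus strand: gtaatttttgtgTAGgtgtat
FMR1 chrX:147944854-147944874, plus strand: tttaactctcgaTAGgaacta
FMR1 chrX:147944890-147944910, plus strand: atgcttctgaaaCAGaatctg
FMR1 chrX:147944929-147944949, plus strand: gtgattggtcatTAGctccaa

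Of the 45 readable acceptors, 14 had T before the AG (31.11%, Wilson 95% interval 19.53 to 45.66), 21 had C, 9 had A and 1 had G. Over all protein-coding genes of the annotation, 41869 of 238228 acceptors were readable in this sense, with an intron ending in AG, and 21.64% of those had T. The readable acceptors are not a random sample, since they lie inside retained introns or longer exons of other transcripts, and the interval covers counting only. T stood before the AG in 3 of 8 readable acceptors of PICALM, 3 of 7 of FMR1, 3 of 6 of ATR, 2 of 6 of CEP164, 2 of 11 of GNAS and 1 of 3 of KMT2D. Neither the 1 readable acceptor of STRAP nor the 3 of DEK had it. These counts describe the annotation and say nothing of which acceptors the cells used.

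At the level of whole genes, none of the 8 was shown to differ between S34F and WT. The S34F and WT values overlapped for each of them. STRAP, PICALM, GNAS, DEK, KMT2D and CEP164 reached 1 FPKM on average and entered the limma test of 10942 genes, while ATR and FMR1 lay under that filter and were fitted only without it. Of the 6 tested genes, 0 had an unadjusted limma p under 0.05 together with a fold change above 1.5, against 0.585% of all genes tested. The study used the same 2 limits, but here the fold change is that of FPKM + 1, which shrinks it for low genes. These counts are therefore not comparable with those of the study. An unadjusted limma p under 0.05 alone was found for 0 of 6 members and for 2.39% of all genes. By the same test, 0 of 6 members and 0% of all genes had an adjusted p under 0.05. Groups did not overlap for 0 of 6 members, beside 7.38% of all genes tested.

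The libraries numbered 3 stood apart from the others before any member was considered. On log2(FPKM + 1) over the tested genes, S34F replicate 3 correlated with the other S34F libraries at r = 0.953 and 0.954, whereas S34F replicates 1 and 2 correlated at 0.985 and WT replicates 1 and 2 at 0.986. S34F replicate 3 correlated at 0.975 with WT replicate 3. S34F replicate 3 was the highest of the 6 libraries for 31.4% of all tested genes and the lowest for 27.3%. Each member is therefore given with and without both libraries numbered 3. Depth, estimated from the FPKM step of single-exon genes, was about 20.5 to 26.1 M fragments per library.

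Markers of the labelled lineage were found only in part, and the summed erythroid markers were far higher. SKM-1 is known as a myeloid line with monocytic features. The lysosomal CD68 averaged 46.3 FPKM, the lysozyme gene LYZ 15.7 FPKM and the myeloid factor gene SPI1 10.6 FPKM, but 7 of 12 monocytic and myeloid markers had a mean under 1 FPKM, and the myeloid enzyme gene MPO was listed at 0 in 4 of 6 libraries. Erythroid markers were high, with 10 of 12 averaging 10 FPKM or more and the embryonic globin gene HBE1 at 5058 to 5834 FPKM. The summed erythroid markers came to between 12198 and 13963 FPKM in S34F and between 11784 and 12911 in WT. The summed monocytic and myeloid markers came to between 57.2 and 83.2 FPKM in S34F and between 79.5 and 98.6 in WT, and no marker of either list was at 0 in all libraries. The part of this profile in the results was not tested. Nor was the identity of the line, which rests on the sample titles. In other assays the study also used K562, a chronic myelogenous leukemia line. In bulk RNA, fewer cells of a type and less RNA per cell cannot be told apart.

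U2AF1 itself, the gene introduced by the vector, was at 9.24, 9.48 and 9.18 FPKM in S34F replicates 1 to 3 and at 8.67, 8.70 and 7.65 FPKM in WT replicates 1 to 3. The S34F libraries were all above the WT libraries, by 0.14 on the log2(FPKM + 1) scale (SE 0.10, limma adjusted p = 0.9999). Groups did not overlap for 7.38% of all tested genes. A gene-level value does not separate mutant from wild-type RNA, nor the vector from the cell's own gene and its near-identical copy U2AF1L5.

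The levels of the 8 genes covered a wide range. STRAP was above 96.8% of the 31142 listed genes by mean FPKM and FMR1 above 55.0%. In descending order of mean FPKM the genes were STRAP, GNAS, PICALM, KMT2D, DEK, CEP164, ATR and FMR1. The ranges of PICALM and KMT2D over the libraries overlapped, as did those of KMT2D and DEK, while the other 5 neighbouring pairs had no overlap. Within each library PICALM was nevertheless above KMT2D, whereas KMT2D and DEK changed order between libraries. The largest step was from DEK down to CEP164, a 4.52-fold difference in mean FPKM. Together the 8 genes summed to between 84.8 and 97.7 FPKM in a library.

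**Figure D1:**
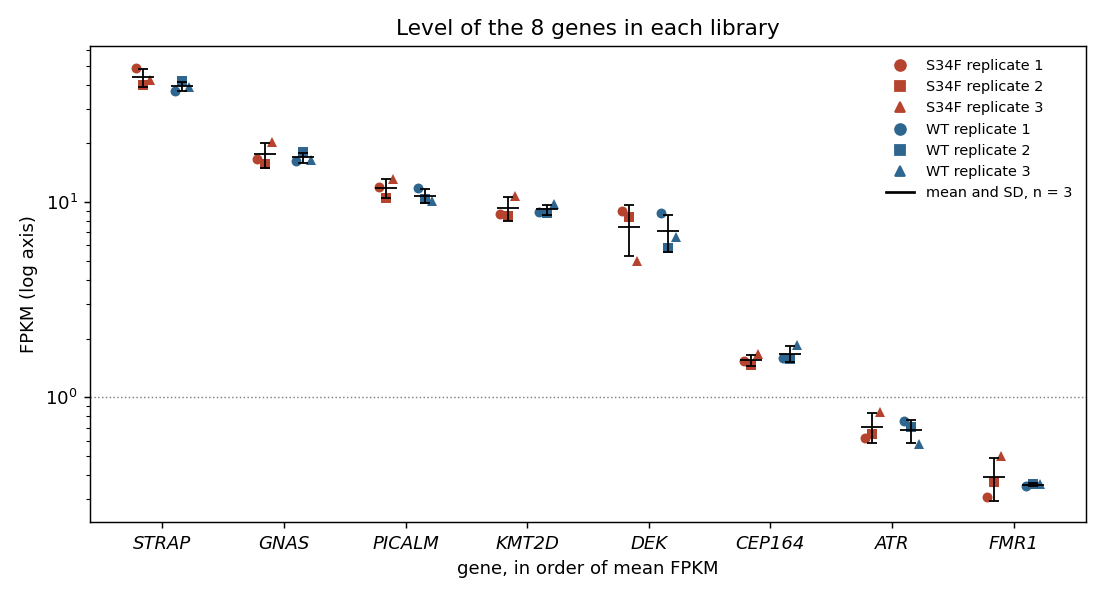
FPKM of the 8 genes on a log axis in each of the 3 S34F and 3 WT libraries, with the mean and SD of each group (n = 3) and a dotted line at 1 FPKM, the limit for the test. S34F and WT points overlap for every gene, and S34F replicate 3 (red triangle) is the highest point for PICALM, GNAS, KMT2D, ATR and FMR1 and the lowest for DEK.

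STRAP (ENSG00000023734) lies at chr12:15882391-15903478 on the plus strand and encodes a WD-repeat protein that binds the SMN complex, which loads Sm proteins onto spliceosomal RNAs. The exon behind the printed acceptor has 66 bases, is used by 3 of 6 annotated transcripts and is spliced past by 1. STRAP was at 49.0, 39.9 and 42.2 FPKM in S34F replicates 1 to 3 and at 37.3, 41.6 and 39.0 FPKM in WT replicates 1 to 3. S34F replicate 1 stood above all others, S34F replicate 3 lay just above the highest WT library, and S34F replicate 2 lay among the WT libraries. The means were 43.7 ± 4.71 FPKM in S34F and 39.3 ± 2.16 FPKM in WT (SD, n = 3 each), a log2 fold change of 0.15 (SE 0.11, 95% interval -0.12 to 0.42, limma adjusted p = 0.9999). An exact two-sided permutation test of the means gave p = 0.2, where 3 libraries against 3 allow no value under 0.1. Without both libraries numbered 3 the log2 fold change was 0.16, and without S34F replicate 1 it was 0.0639.

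PICALM (ENSG00000073921, chr11:85957684-86069882, minus strand) encodes a clathrin adaptor of endocytosis and is a fusion partner gene in acute leukemia. Its printed acceptor ends in TAG and opens an exon of 60 bases, used by 10 of 24 annotated transcripts and spliced past by 3. The S34F libraries had 11.9, 10.4 and 13.1 FPKM and the WT libraries 11.8, 10.4 and 10.1 FPKM, replicates 1 to 3 in each case. S34F was the higher in each of the 3 same-numbered pairs, although the pairs numbered 1 and 2 were nearly level and the gap came from the pair numbered 3. Group means were 11.8 ± 1.32 and 10.8 ± 0.931 FPKM (SD, n = 3 each), with a log2 fold change of 0.12 (SE 0.12, 95% interval -0.17 to 0.41, limma adjusted p = 0.9999). The exact two-sided permutation test gave p = 0.2. With both replicates 3 left out, the log2 fold change was 0.0058, and the group means were 11.2 FPKM in S34F and 11.1 FPKM in WT.

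GNAS (ENSG00000087460, chr20:58839718-58911192, plus strand) encodes the alpha subunit of the stimulatory G protein, which couples receptors to adenylyl cyclase. The locus has 58 annotated transcripts from several promoters. The exon of 45 bases behind its AAG acceptor is used by 26 of them and spliced past by 22, and the exon of 73 bases behind the TAG acceptor is used by 45 and spliced past by 1. GNAS reached 16.6, 15.6 and 20.4 FPKM in S34F and 16.3, 18.1 and 16.5 FPKM in WT. S34F replicate 3 was the highest library and S34F replicate 2 the lowest, with all WT libraries between them. Means were 17.6 ± 2.54 FPKM against 17.0 ± 0.999 FPKM (SD, n = 3 each), and the log2 fold change was 0.04 (SE 0.13, 95% interval -0.26 to 0.34, limma adjusted p = 0.9999). The exact permutation test gave p = 0.8. Without both replicates 3 the log2 fold change was -0.09. The antisense gene GNAS-AS1 shares 1127 exonic bases with GNAS and was listed at no more than 0.0619 FPKM in any library. Whether strand was used in the quantification is not given in the sources used here.

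DEK (ENSG00000124795, chr6:18223868-18264823, minus strand) encodes a chromatin-bound DNA-topology factor and forms a fusion with NUP214 in a subset of acute myeloid leukemias. The exon behind the printed CAG acceptor has 154 bases and is used by 4 of 8 annotated transcripts. DEK was at 9.04, 8.40 and 5.02 FPKM in S34F and at 8.82, 5.83 and 6.66 FPKM in WT. It varied most among the 8, with a coefficient of variation of 23.2% over the 6 libraries against 8.53% to 17.3% for the others, and a highest library 1.80 times the lowest. The spread ran within each group, since S34F replicate 3 fell far under the other S34F libraries and WT replicate 1 stood above the other WT libraries. Means were 7.49 ± 2.16 FPKM in S34F and 7.10 ± 1.54 FPKM in WT (SD, n = 3 each), and the log2 fold change was 0.05 (SE 0.23, 95% interval -0.50 to 0.60, limma adjusted p = 0.9999). By the exact permutation test p = 0.9. Only 14.6% of tested genes had a larger SE. Leaving out S34F replicate 3 moved the log2 fold change to 0.28, leaving out S34F replicate 1 moved it to -0.09, and without both replicates 3 it was 0.25.

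KMT2D (ENSG00000167548, chr12:49018975-49059774, minus strand) encodes a histone methyltransferase of enhancers and has 57 annotated acceptors, the most of the 8 genes. Its 3 readable acceptors include the printed CAG before an exon of 160 bases, which 1 of 8 transcripts uses. KMT2D values were 8.70, 8.49 and 10.8 FPKM in S34F and 8.95, 8.80 and 9.78 FPKM in WT. Replicate 3 was the highest library of each group, and outside replicates 3 both S34F libraries were just below both WT libraries. Means of 9.33 ± 1.27 FPKM in S34F and 9.18 ± 0.532 FPKM in WT (SD, n = 3 each) gave a log2 fold change of 0.02 (SE 0.12, 95% interval -0.28 to 0.31, limma adjusted p = 0.9999). The exact permutation p was 1. Without both replicates 3 the log2 fold change was -0.04 (95% interval -0.18 to 0.10). The antisense gene DDN-AS1, which shares 261 exonic bases with KMT2D, was at no more than 0.359 FPKM.

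CEP164 (ENSG00000110274, chr11:117314557-117413268, plus strand) encodes a protein of the distal appendages, which anchor the mother centriole to the membrane when a cilium forms. An AAG acceptor opens the printed exon of 147 bases, which 2 of 14 annotated transcripts use. CEP164 was at 1.54, 1.46 and 1.66 FPKM in S34F and at 1.60, 1.57 and 1.86 FPKM in WT. It was the 1 gene of the 8 with the lower value in S34F in all 3 same-numbered pairs, but S34F replicate 3 lay above WT replicates 1 and 2. Means were 1.55 ± 0.0995 FPKM and 1.67 ± 0.162 FPKM (SD, n = 3 each), a log2 fold change of -0.07 (SE 0.10, 95% interval -0.31 to 0.17, limma adjusted p = 0.9999). An exact permutation test of the means gave p = 0.4, and the log2 fold change without both replicates 3 was -0.05. The antisense gene AP000892.1 shares 165 exonic bases with CEP164 and was at no more than 0.177 FPKM. At this level each library held about 177 to 259 fragments of the gene, and adding 1 to the FPKM shrinks the change of a gene this low.

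ATR (ENSG00000175054, chr3:142449235-142578826, minus strand) encodes the kinase that signals stalled replication forks. The exon behind its AAG acceptor has 137 bases, is used by 2 of 10 annotated transcripts and is spliced past by 1. ATR was at 0.620, 0.649 and 0.845 FPKM in S34F and at 0.753, 0.705 and 0.575 FPKM in WT. The replicates 3 were the extremes of the 6 libraries, S34F replicate 3 the highest and WT replicate 3 the lowest, and in the other pairs S34F was below WT. Means were 0.705 ± 0.123 FPKM in S34F and 0.678 ± 0.0922 FPKM in WT (SD, n = 3 each). In the limma fit without a filter the log2 fold change was 0.02 (SE 0.11, 95% interval -0.24 to 0.28, adjusted p = 0.999), and without both replicates 3 it was -0.08. An exact permutation test of the means gave p = 0.8. An antisense processed pseudogene that shares 2048 exonic bases with ATR was not analysed here. Counting about 105 fragments in the lowest library carries an error near 9.77%, and the coefficient of variation over the libraries was 14.2%.

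FMR1 (ENSG00000102081, chrX:147911951-147951125, plus strand) encodes FMRP, an RNA-binding protein that restrains translation and is lost in fragile X syndrome. Of the printed acceptors, 3 open versions of 1 exon that share the end at position 147945051, with lengths of 183, 147 and 108 bases. The first and last of these end in TAG and are used by 6 and 3 of 21 annotated transcripts, and the middle one ends in CAG and is used by 1. FMR1 was at 0.310, 0.369 and 0.499 FPKM in S34F and at 0.350, 0.358 and 0.361 FPKM in WT. The WT libraries were almost level, and the S34F libraries lay on both sides of them, replicate 1 below and replicates 2 and 3 above. Means were 0.393 ± 0.0970 FPKM in S34F and 0.356 ± 0.00601 FPKM in WT (SD, n = 3 each), and the limma fit without a filter gave a log2 fold change of 0.04 (SE 0.08, 95% interval -0.15 to 0.22, adjusted p = 0.999). An exact permutation test of the means gave p = 0.7. Without both replicates 3 the log2 fold change was -0.02. With about 27.3 fragments in the lowest library, counting alone carries an error near 19.1%, so that a difference of that size was not detectable in a single library at this depth.

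Side by side, the changes of the 6 tested genes were small. Their median log2 fold change was 0.05, with 5 of 6 above 0, against a median of 0.01 and 54.6% above 0 over all genes tested. The median absolute change was 0.06 for the members and 0.09 for all genes. With all libraries STRAP had the largest absolute change of the 6, larger than that of 71.9% of tested genes, although without S34F replicate 1 that of PICALM (0.11) was larger than that of STRAP (0.0639), and KMT2D the smallest, larger than that of 9.93%. For the tested genes other than DEK, the 95% interval reached neither a 1.5-fold rise nor a 1.5-fold fall on the log2(FPKM + 1) scale, while the interval of DEK extended past a 1.5-fold rise. STRAP, PICALM and CEP164 kept their sign under every alternative tried, whereas GNAS, DEK, KMT2D, ATR and FMR1 changed sign under at least 1 of them.

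**Figure D2:**
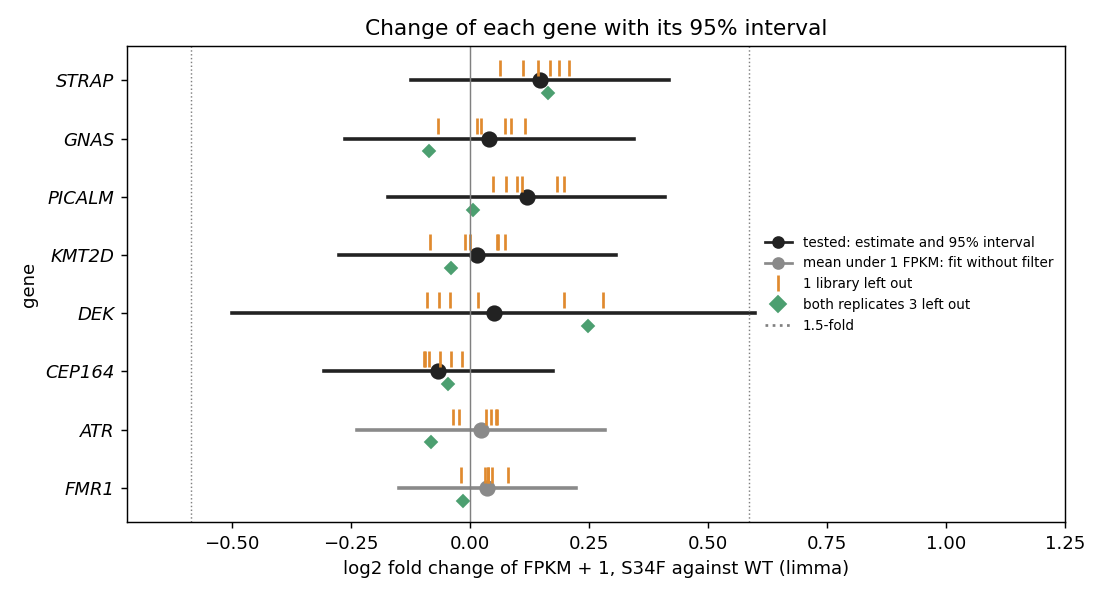
Log2 fold change of FPKM + 1, S34F against WT, for each of the 8 genes, with limma estimates and 95% intervals (black for the 6 tested genes, grey for ATR and FMR1 from the fit without a filter), values with 1 library left out (orange ticks), values without both replicates 3 (green diamonds) and dotted lines at 1.5-fold. All 8 intervals contain 0, that of DEK is the widest, and the orange ticks of DEK run from -0.09 to 0.28.

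S34F replicate 3 often stood at the edge of the range of these genes. It was the highest library for 5 of the 8, namely PICALM, GNAS, KMT2D, ATR and FMR1, and for 3 of the 6 tested, against 31.4% of all tested genes. It was the lowest library for DEK alone, beside 27.3% of all tested genes. The ratio of S34F replicate 3 to the mean of the other 5 libraries was 1.43 for FMR1, 1.28 for ATR, 1.23 for GNAS, 1.21 for KMT2D and 1.19 for PICALM, 1.03 for CEP164, 1.02 for STRAP and 0.648 for DEK. It lay above the gene's mean over the 6 libraries for 7 of 8 members, while 50.7% of all tested genes did so. Those 8 include ATR and FMR1, which lay under the filter of the tested genes. Its median absolute distance from the gene mean was 0.16 for the same 8 members and 0.20 for all tested genes on the log2(FPKM + 1) scale. Why this library differs was not tested.

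**Figure D3:**
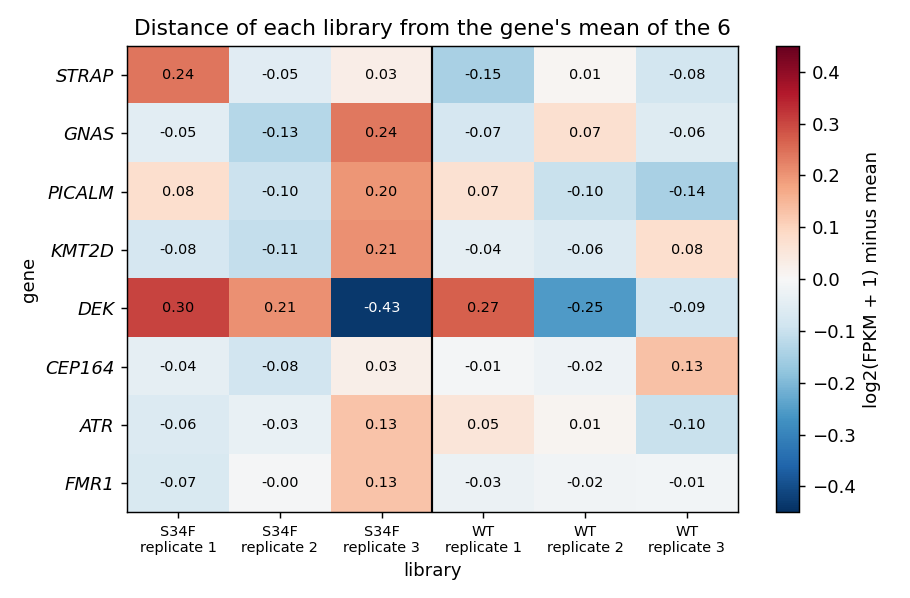
Distance of each library from the gene's mean over the 6 libraries, on the log2(FPKM + 1) scale, for the 8 genes in rows and the libraries in columns, S34F to the left and WT to the right of the line (red above the mean, blue below). The column of S34F replicate 3 is above the mean in 7 rows and at -0.43 for DEK, and no row is of 1 colour on each side of the line.

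Among all tested genes, those whose profile over the 6 libraries was nearest to those of DEK, STRAP and GNAS, the 3 members with the widest range of log2(FPKM + 1), were found by the root mean square distance between centred log2(FPKM + 1) values. Nearest to DEK were IMPA2, which encodes an inositol monophosphatase, at a distance of 0.06, C19orf48 at 0.08 and the pseudogene HNRNPA1P10 at 0.09. IMPA2 was at 4.81, 4.02 and 2.56 FPKM in S34F and at 4.30, 2.81 and 3.09 FPKM in WT, with the same low S34F replicate 3 and high WT replicate 1 as DEK. SPIN1 at 0.02, KPNA2 and WASH9P, both at 0.05, were nearest to STRAP. SPIN1 was at 1.52, 1.05 and 1.12 FPKM in S34F and at 0.862, 1.14 and 1.01 FPKM in WT. At that level the added 1 shrinks its changes, so its FPKM varied more widely in proportion than those of STRAP. Nearest to GNAS were AIFM1 at 0.02, USP54 and QRICH1, both at 0.03. AIFM1, which encodes the apoptosis-inducing factor, was at 15.4, 14.9 and 19.4 FPKM in S34F and at 15.9, 17.5 and 15.5 FPKM in WT. HNRNPA1P10 and WASH9P share sequence with related genes, and their levels are uncertain for that reason. These distances describe 6 libraries only.

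The other genes of the same processes were taken from 10 lists, 81 genes in all, of which 70 passed the filter. Of these, 44 had a higher and 26 a lower mean log2 level in S34F, beside 54.6% higher over all tested genes. An unadjusted limma p under 0.05 was found for 1, or 1.43% beside the 2.39% of all genes. Groups did not overlap for 5 of the 70, or 7.14% beside 7.38%. The 1 gene with an unadjusted p under 0.05 was ATRIP (ENSG00000164053), the partner that brings ATR to single-stranded DNA. ATRIP was at 3.66, 4.17 and 3.70 FPKM in S34F and at 2.78, 2.87 and 3.24 FPKM in WT, so that all S34F libraries stood above all WT libraries. The log2 fold change was 0.29 (SE 0.11, limma adjusted p = 0.9999), and it was 0.36 without both replicates 3 (, limma adjusted p = 0.187). Over 13 alternatives it stayed between 0.24 and 0.37, with an unadjusted limma p under 0.05 in 9 and an adjusted p between 0.187 and 1. Leaving out S34F replicate 1 or 2, or WT replicate 1 or 2, each brought the unadjusted p above 0.05.

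In the checkpoint pathway of ATR, 10 of 11 tested genes had a positive and 1 a negative log2 fold change. Their median was 0.05 and their range -0.02 to 0.29, and only ATRIP passed the unadjusted test. Over all tested genes 54.6% were above 0 and the median was 0.01, the background for these and the following counts. Whether any list differed from that share was not tested. WT replicate 3 lay above the gene's mean over the 6 libraries for 41.4% of all tested genes, and the lists were not counted without it. The KMT2C and KMT2D complex had 7 of 9 tested genes above 0 and a median of 0.06. The SMN complex, to which STRAP binds, had 5 of 9 above 0 and a median of 0.04, with SMN1 at 0.25 and its near-identical copy SMN2 at -0.30, both named after their values were seen. Reads shared by those copies make both values uncertain. Clathrin and AP2 genes, the partners of PICALM, were split 5 to 5 with a median of 0.0032. Genes of Gs signalling around GNAS had 3 of 8 above 0 and a median of -0.04. None of the tested genes of these last 4 lists had an unadjusted limma p under 0.05.

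For DEK partners, 1 of 3 tested genes was above 0 with a median of -0.02, and for the FMRP family and its partners 2 of 3 were above 0 with a median of 0.04. Of the distal appendage genes around CEP164, only 2 of 6 passed the filter, FBF1 at -0.17 and CEP89 at -0.03, named here as the only ones tested. Splice site recognition genes had 4 of 7 above 0 and a median of 0.02. In that list the groups did not overlap for 2 of 7 genes, beside 7.38% of all tested genes. These were U2AF1 and SRSF2, an exon-binding SR protein, which was chosen for mention after its values were seen. SRSF2 was at 21.0, 21.9 and 19.6 FPKM in S34F and at 24.2, 24.1 and 25.0 FPKM in WT, with a log2 fold change of -0.22 (SE 0.09, limma adjusted p = 0.9999). The clathrin heavy chain gene CLTC (log2 fold change 0.18) and the AP2 subunit gene AP2M1 (-0.06) made up the remaining genes with no overlap, and were likewise named after their values were seen.

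A further 9 genes reported elsewhere as targets of mutant U2AF1 formed the last list. Of these 8 were tested, and 7 had a positive and 1 a negative log2 fold change, beside 54.6% positive over all tested genes. The median was 0.06, against 0.01 over all tested genes, with none at an unadjusted limma p under 0.05. IRAK4, a kinase of Toll-like receptor signalling that was named after its values were seen, had the largest of these, 0.33 (SE 0.18, limma adjusted p = 0.9999). It was at 1.34, 0.835 and 2.02 FPKM in S34F and at 0.894, 0.878 and 0.841 FPKM in WT, so that S34F replicate 2 lay below every WT library and S34F replicate 3 far above. S34F replicate 3 was the highest library for 5 of these 9 genes (IRAK4, WAC, CTNNB1, CHCHD7 and TET2, named for that reason). The share over all tested genes was 31.4%, and TET2 lay under the filter.

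**Figure D4:**
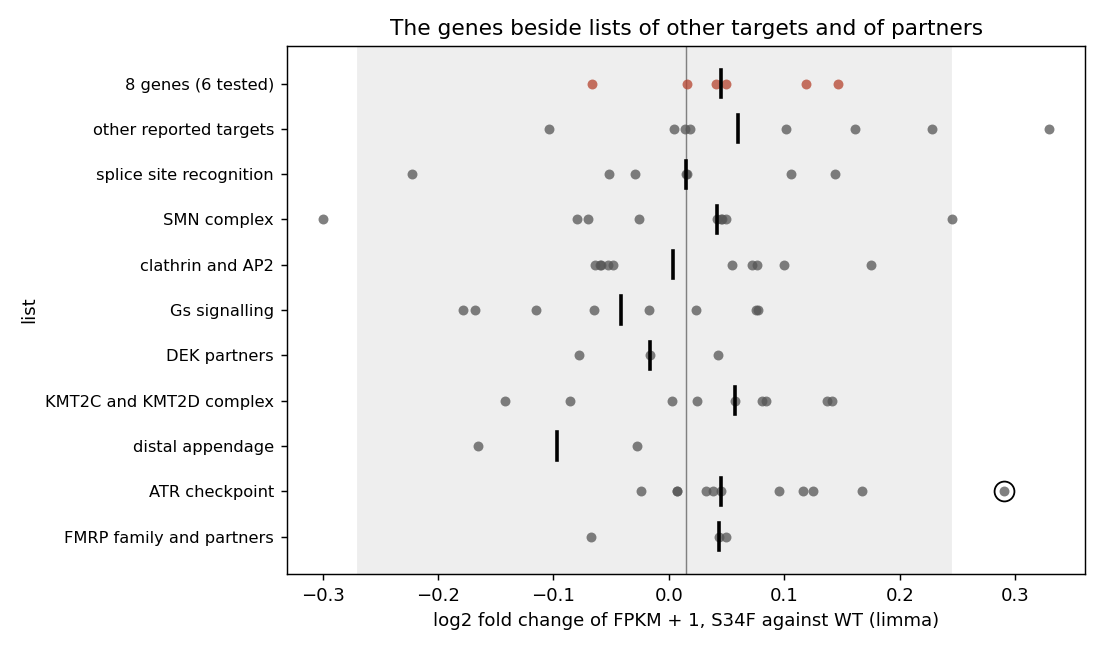
Log2 fold change of FPKM + 1, S34F against WT, from limma for the 6 tested members (red) and the 70 tested genes of the 10 lists (grey), 1 point per gene, with list medians (black bars), the median of all 10942 tested genes (vertical line) and the band that holds the central 90% of them (grey). The members all lie inside the band, and ATRIP, circled, is the 1 list gene with an unadjusted p under 0.05.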

How the data were processed

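Total RNA of 6 libraries was sequenced on an Illumina instrument. The authors deposited 1 table of FPKM per gene and library, normalised to transcript length and mapped fragments. The submitters' processing notes name StringTie and edgeR, without versions or roles. The aligner, genome build and annotation are not given in the sources used here. The table also holds fold changes, p-values and q-values of the authors' own comparison, which were not used. FPKM carry no counts, so no count model was run. Depths and fragment numbers are approximate and cover counting error only.

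The members and lists were chosen with earlier results of these data known. Groups were taken from sample titles. FPKM were analysed as log2(FPKM + 1) with limma 3.58.1 in R 4.3.3, with moderated variances that follow the mean level, and Benjamini-Hochberg adjustment. The fit covered the 10942 genes that averaged 1 FPKM or more. ATR and FMR1 were taken from the same fit without the filter. Adding 1 understates the change of low genes. The code was tested on simulated data. Single genes were also compared by exact permutation tests with scipy 1.17.1. Genes named from the lists were those with an unadjusted p under 0.05, and others are marked where they appear as named for their values or for their role. Alternatives were a pseudocount of 0.1, no filter, a minimum mean of 5 FPKM, median-ratio and upper-quartile scaling, no trend, a replicate block, and fits without single libraries or without both replicates 3.

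Whether replicate numbers pair the libraries was checked from the correlation of deviations from the group means, which was 0.21, 0.17 and 0.38 for the pairs numbered 1, 2 and 3. All were over 0.1. The main limma fit and the permutation tests were nevertheless unpaired, and pairing entered only through the replicate block. The mismatched pairs of S34F replicate 1 with WT replicate 2 and of S34F replicate 2 with WT replicate 1 had 0.13 and 0.20. Pairs 1 and 2 were thus not set apart from each other. Deviations cancel out within a group, so a deviation shared by both replicates 3 also raises the values among replicates 1 and 2. The values of pairs 1 and 2 therefore do not show pairing by themselves. Acceptor sequences were read from GENCODE 29 transcripts on GRCh38.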

Additional observations from a re-analysis of the deposited data

How the results depend on the processing

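None of the 107 alternative values of the 8 genes had an unadjusted limma p under 0.05, and 94 kept their direction. The other 13 changed sign, all on leaving out libraries, and the cause was not tested. With 1 library left out, the log2 fold change ranged from 0.0639 to 0.21 for STRAP, from 0.0484 to 0.20 for PICALM, from -0.0960 to -0.0168 for CEP164, from -0.0674 to 0.12 for GNAS, from -0.0894 to 0.28 for DEK, from -0.0834 to 0.0734 for KMT2D, from -0.0364 to 0.0577 for ATR and from -0.0183 to 0.0793 for FMR1. Without S34F replicate 3, GNAS, KMT2D, ATR and FMR1 were negative. Without both libraries numbered 3 the values were -0.0861 for GNAS, -0.0409 for KMT2D, -0.0812 for ATR and -0.0156 for FMR1.

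The number of tested members whose groups did not overlap was 0 with all libraries and 0 to 2 with 1 left out: STRAP and PICALM without S34F replicate 2, CEP164 and KMT2D without S34F replicate 3, PICALM without WT replicate 1 and STRAP without WT replicate 2. It was 2 without both replicates 3. Over all 10942 tested genes, 808 had groups that did not overlap with all libraries, 1436 without S34F replicate 2, 3706 without S34F replicate 3, 1323 without WT replicate 1, 1380 without WT replicate 2 and 5631 without both replicates 3.

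Over all tested genes, 64 had an unadjusted p under 0.05 with a fold change above 1.5. That count was 122 with pseudocount 0.1, 22 with a mean of at least 5 FPKM, 66 to 180 with 1 library left out (180 without S34F replicate 3) and 183 without both replicates 3. The 262 genes with an unadjusted p under 0.05 became 904 without a filter, 113 with a mean of at least 5 FPKM, between 162 and 1160 with 1 library left out (the lowest lacking WT replicate 1 and the highest lacking S34F replicate 3) and 1846 without both replicates 3. With an adjusted p under 0.05 there were 0 to 3 genes with 1 library left out and 8 without both replicates 3.

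With the replicate block, 443 genes had an unadjusted limma p under 0.05, and the block changed no call of a member. Among readable acceptors of the transcripts with the most coding bases, 10 of 27 in the 8 genes had T before the AG. That is 37.04%, beside 24.61% over all protein-coding genes. It rests on few acceptors, which are not a random sample, and was not tested.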
